A study of Arabidopsis thaliana with 6 samples.

Results

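DFR (AT5G42800) encodes dihydroflavonol reductase of Arabidopsis thaliana, 1 of 13356 genes with a probe set of their own in the platform annotation. It was chosen by that annotation, which gives it the probe set 249215_at among 22746 that are not controls. Its transcript level was followed in whole seedlings of 2 brassinosteroid mutants, bzr1-1D and det2, and over 3 repeats of the experiment. Both mutants were in the Columbia-0 background. In bzr1-1D the transcription factor BZR1, on which brassinosteroid signalling ends, is active at all times through a dominant mutation. In det2 a steroid reductase needed to make the hormone is defective. The genotypes were grown side by side in 3 experiments, each in another week, and every experiment gave 1 Affymetrix ATH1 array per genotype. Seedlings of both genotypes had spent 5 days in shaken liquid Murashige and Skoog medium with 1.5% sucrose under constant light at 22 °C. They had then received a mock treatment for 3 hours, with ethanol (80% in the labels) alone. The RNA came from whole seedlings, so each array averages over all organs. Fewer cells that express a gene and less transcript per cell cannot be told apart in such samples. Wild-type arrays were not analysed here, so every difference below is one between the 2 mutants.

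Flavonoids are made from phenylpropanoids. Chalcone synthase and chalcone isomerase build the core, hydroxylases turn it into dihydroflavonols, and from there the pathway forks. Flavonol synthase takes dihydroflavonols to flavonols, whereas DFR reduces them to leucoanthocyanidins, the first step that belongs to anthocyanins and proanthocyanidins alone. Plants that lack DFR have pale seeds and no anthocyanin, the phenotype named transparent testa. DFR counts among the late genes of the pathway, which in seedlings are switched on by complexes of MYB, bHLH and WD40 proteins, and anthocyanin in seedlings is raised by sucrose and strong light.

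The intensity of DFR was 1628.2 in bzr1-1D against 632.3 in det2 in experiment 1, 298.7 in bzr1-1D against 539.6 in det2 in experiment 2, and 737 in bzr1-1D against 266.4 in det2 in experiment 3. It was thus higher in bzr1-1D in experiments 1 and 3 and lower in experiment 2, and the genotypes overlapped. As a fold of bzr1-1D over det2, experiment 1 gave 2.58, experiment 2 gave 0.554 and experiment 3 gave 2.77. The means were 888 ± 677.5 in bzr1-1D and 479.4 ± 190.2 in det2 (SD, n = 3 each). The spread lay mainly within bzr1-1D, where the highest array exceeded the lowest 5.45-fold, against 2.37-fold in det2.

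**Figure D1:**
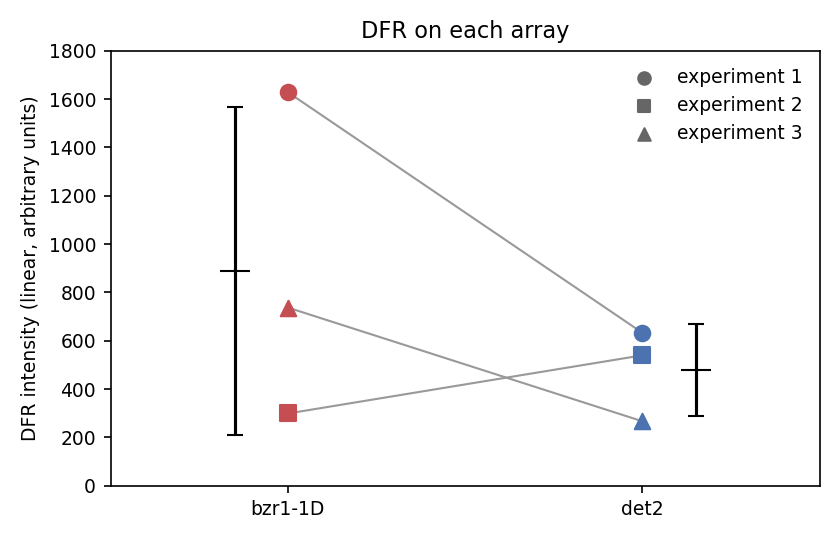
DFR intensity (linear, arbitrary units) on each of the 6 arrays, bzr1-1D on the left and det2 on the right. Marker shapes give the experiment, grey lines join arrays of the same experiment, and black bars are the mean ± SD of 3 arrays. The line of experiment 2 runs the other way from those of experiments 1 and 3, and the bzr1-1D array of experiment 1, at 1628.2, stands above the rest.

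The difference between the genotypes was smaller than its spread over the experiments. All differences here are given as log2(intensity + 50), and for DFR, experiments 1, 2 and 3 gave a bzr1-1D minus det2 of 1.30, -0.76 and 1.31. The mean was 0.62 ± 0.47 (SE), with a 95% interval from -0.606 to 1.84. DFR did not pass the test in a limma fit blocked by experiment and adjusted over all probe sets after Benjamini and Hochberg (unadjusted p = 0.246, adjusted p = 0.81). Of all 22746 probe sets, 0% passed at an adjusted p under 0.05 and 6.84% had an unadjusted p under 0.05, so DFR shared the lack of a call with every other probe set. An exact two-sided permutation that flips the signs of the 3 within-experiment differences gave p = 0.5, where the smallest possible is 0.25, and exact permutation of the genotype labels over the 6 arrays gave p = 0.4, where the smallest possible is 0.1. Neither permutation can reach the threshold with 3 arrays per genotype. Leaving out any one experiment moved the mean by over 1.5 times. Without experiment 2 it was 1.31 ± 0.174 (SE; limma, unadjusted p = 0.00105, adjusted p = 0.879). That omission takes out the only experiment in which DFR was lower in bzr1-1D and leaves the nearly equal differences of 1.30 and 1.31. Without experiment 1 the mean was 0.278 ± 0.535 (SE; limma, unadjusted p = 0.629, adjusted p = 0.938). Without experiment 3 it was 0.27 ± 0.588 (SE; limma, unadjusted p = 0.674, adjusted p = 0.993).

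Set against all probe sets, the DFR difference was among the widest in experiments 1 and 3. In experiment 1, 99.8% of all probe sets had a lower difference of bzr1-1D minus det2 than DFR, and in experiment 3, 99.1% did. In experiment 2 only 5.79% had a lower one. The experiments themselves differed in how far the genotypes lay apart, and over all probe sets the SD of the differences was 0.35, 0.592 and 0.469 in experiments 1, 2 and 3. The SD of the 3 DFR differences was 1.19, and 98.1% of all probe sets had a smaller one. These percentages describe where DFR lies and are not tests. With 1 array per genotype in each experiment, whether the genotype difference itself differs between experiments cannot be tested.

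**Figure D2:**
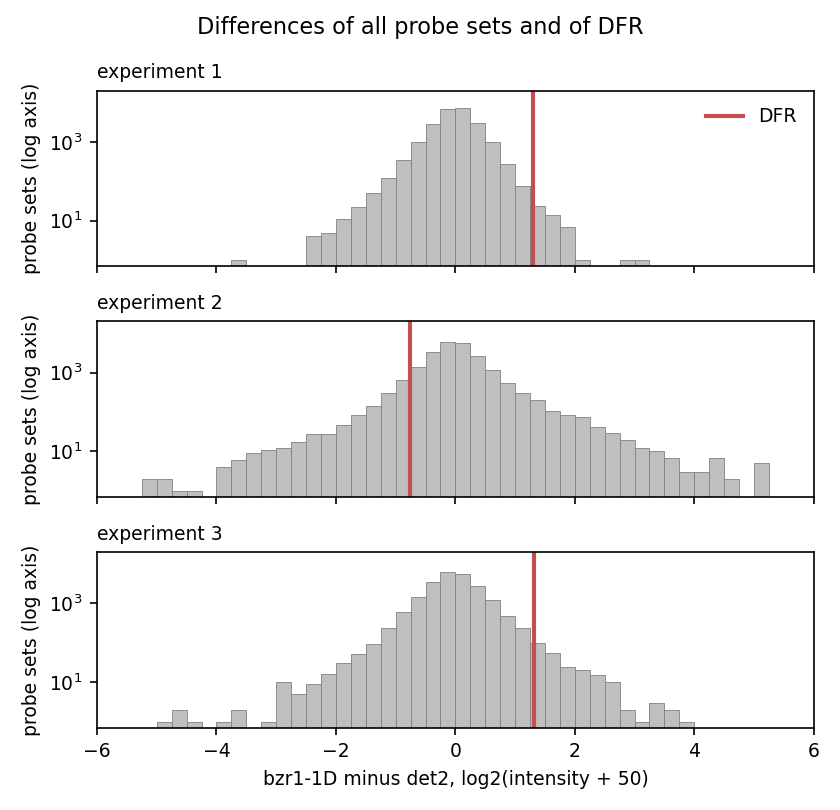
Histograms of bzr1-1D minus det2 as log2(intensity + 50) for all 22746 probe sets in each experiment, with the number of probe sets on a log axis. The red line marks DFR, which lies far to the right in experiments 1 and 3 (1.30 and 1.31) and left of the centre in experiment 2 (-0.76).

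Ranked by level, the arrays did not sort by genotype or by experiment. The bzr1-1D array of experiment 1 was highest, followed by bzr1-1D of experiment 3, det2 of experiment 1, det2 of experiment 2, bzr1-1D of experiment 2 and det2 of experiment 3. The residual SD of DFR in the limma fit was 0.571 on the log2 scale. The gap between the first and the second array, 1.09, was 1.91 times this residual SD, and that between the fourth and the fifth, 0.758, was 1.33 times. The other neighbours in this order lay between 0.14 and 0.211 apart, well within the residual SD, and are not told apart by these data. A gap between single arrays varies more than the residual SD, so the gaps of 1.09 and 0.758 are not shown to tell arrays apart either. No gap was tested.

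Of the experiments, experiment 1 had the highest mean level of DFR, but no difference between experiments passed the test. Averaged over both genotypes, experiments 1, 2 and 3 had an intensity of 1130, 419.2 and 501.7. In bzr1-1D the level was 1628.2, 298.7 and 737 in experiments 1, 2 and 3, whereas in det2 it was 632.3, 539.6 and 266.4, so experiments 2 and 3 changed places between the genotypes. With genotype in the model, experiment 2 minus experiment 1 was -1.24 ± 0.571 (SE; limma, unadjusted p = 0.0861, adjusted p = 0.494), with a 95% interval from -2.74 to 0.261. Experiment 3 minus experiment 1 was -1.10 ± 0.571 (SE; limma, unadjusted p = 0.116, adjusted p = 0.469) and experiment 3 minus experiment 2 was 0.14 ± 0.571 (SE; limma, adjusted p = 0.992). Over all probe sets, 0% passed at an adjusted p under 0.05 in any of these contrasts. At an unadjusted p under 0.05 the share was 11.3% for experiment 2 against 1, 13.5% for experiment 3 against 1 and 5.85% for experiment 3 against 2.

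Signs of the RNA and of the array differed between the experiments as well. The GAPDH control probe sets at the 3′ and the 5′ end give a ratio that reflects how complete the labelled RNA was. The 3′ over the 5′ value was 0.757 and 0.8 on the bzr1-1D and det2 arrays of experiment 1 and between 0.461 and 0.496 on the 4 other arrays. The same ratio of an actin control did not set experiment 1 apart, at 1.24, 1.22 and 1.25 in bzr1-1D against 1.27, 1.38 and 1.33 in det2 in experiments 1, 2 and 3. Control transcripts of bacterial and phage genes (bioB, bioC, bioD and cre), added to the sample by the array protocol, had a mean log2 intensity over 9 probe sets of 10.11 and 10.04 on the bzr1-1D and det2 arrays of experiment 1. On those of experiment 2 it was 9.65 and 9.474, and on those of experiment 3 it was 8.948 and 9.252, bzr1-1D again before det2. When the arrays were scaled on these controls in place of the authors' scaling, experiment 3 minus experiment 1 of DFR was -0.193, while the median over all probe sets was 0.724, against 0.0159 under the authors' scaling. Experiment 2 minus experiment 1 was then -0.752, with a median of 0.35 over all probe sets. Such a scaling multiplies every probe set of an array by the same factor, so it leaves the place of DFR among the others nearly as it was. The scaling left bzr1-1D minus det2 almost as it was, at 0.642. The part of RNA quality in the level of DFR was not tested.

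Of 17 markers of low oxygen, light, sugar and seed stage, 3 had a named probe set, and their correlations with DFR changed greatly when the arrays with the most extreme DFR levels were left out. HRA1, a regulator induced by low oxygen, was at 93.8, 110.7 and 2900.2 in bzr1-1D, against 44.7, 77.3 and 3533.7 in det2 in experiments 1, 2 and 3. It was high on both arrays of experiment 3, one of which holds the second-highest and the other the lowest DFR level. PORB, an enzyme of chlorophyll synthesis, was higher in bzr1-1D in every experiment, at 7160.6, 9402.5 and 7720 against 5322.4, 6042.3 and 6252.7 in det2. PAP85, a seed storage protein, stayed between 43.1 and 127.5. The Pearson correlation with DFR over the 6 arrays was -0.309 for HRA1, -0.108 for PORB and -0.0707 for PAP85. Over the 4 arrays left without bzr1-1D of experiment 1 and det2 of experiment 3 it was 0.477 for HRA1, -0.619 for PORB and 0.908 for PAP85.

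Several other flavonoid genes varied with DFR from array to array, and none passed the test. A list of 64 further genes of phenylpropanoid and flavonoid synthesis, decoration and regulation held 11 with a named single-gene probe set. The general phenylpropanoid enzymes and the MYB, bHLH and WD40 activators had 0 members with such a probe set. Measured means here having one. The annotation gives no gene to 8730 probe sets, so the other listed genes may be on the array without a name and were not looked at. Of the 11 genes, 8 had a mean difference above 0 and 3 below. By limma 0 passed and 0 had an unadjusted p under 0.05, against 0% and 6.84% of all probe sets, while 47.6% of all probe sets had a mean difference above 0. Their median bzr1-1D minus det2 was 0.0452, against -0.0118 over all probe sets, and it was 0.298 without experiment 2 and -0.0691 without experiment 3. By experiment that median was 0.332, -0.349 and 0.62, against 0.00502, -0.0168 and -0.0289 over all probe sets.

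Of the early steps, only CHIL had a named single-gene probe set. CHIL is a chalcone isomerase-like protein that helps chalcone synthase make the flavonoid core. Its intensity was 1521.9, 530.7 and 831.2 in bzr1-1D, against 827.3, 644.6 and 312.5 in det2 in experiments 1, 2 and 3. The 6 arrays stood in exactly the same order for CHIL as for DFR, with a Spearman rho of 1 and a Pearson r of 0.962. Its bzr1-1D minus det2 was 0.84, -0.26 and 1.28 in the 3 experiments, with a mean of 0.62 ± 0.32 (SE; limma, unadjusted p = 0.117, adjusted p = 0.752). Leaving out experiment 2 moved the mean to 1.06 and leaving out experiment 3 moved it to 0.291, both by over 1.5 times.

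UGT78D1, which attaches rhamnose to flavonols and so acts on the other branch at the DFR fork, was at 603, 186.7 and 389.6 in bzr1-1D, against 362.4, 366.7 and 159.1 in det2. It was higher in bzr1-1D in experiments 1 and 3 and lower in experiment 2, as DFR was. Its Pearson r with DFR was 0.971, and its bzr1-1D minus det2 was 0.31 ± 0.39 (SE), without a call. UGT78D2, which attaches glucose to flavonols and anthocyanidins, was at 943.6, 534.6 and 843.1 in bzr1-1D, against 709.5, 1081.8 and 723.2 in det2. It kept the same signs but varied less, and its r was 0.599.

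AT5MAT, a malonyltransferase that decorates anthocyanins, was at 271.5, 75.6 and 116.3 in bzr1-1D, against 205.4, 110 and 58.2 in det2, with an r of 0.91. AT4G14090, which the tables used give by locus alone and which stands on the list of decorating enzymes, had 846.2, 147 and 322.8 in bzr1-1D, against 407.8, 274.3 and 21.1 in det2. Its differences of 0.97, -0.72 and 2.39 had the signs of DFR, and its r was 0.917. UF3GT, a glycosyltransferase of anthocyanins, and AT1G06000 went another way in experiment 1. UF3GT was at 316, 118.7 and 484.3 in bzr1-1D, against 457.8, 296.4 and 135.9 in det2, so that it was higher in bzr1-1D in experiment 3 alone. AT1G06000 differed by -0.38, -1.55 and 0.62 in experiments 1, 2 and 3. Their r with DFR was 0.691 for UF3GT and 0.606 for AT1G06000.

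Of the remaining members, 2 had low intensities on every array. BAN, the anthocyanidin reductase that leads to proanthocyanidins of the seed coat, lay between 4.4 and 12.8 on all arrays, and UGT78D3 between 4.4 and 18, both far below the offset of 50. UGT80B1, the sterol glucosyltransferase known as TT15 and needed for seed coat pigment, stayed between 233.3 and 374.4. TRY, a small MYB protein that competes with the activators, was at 127.4, 165.9 and 33.6 in bzr1-1D, against 41.3, 118.2 and 77.9 in det2. It differed by 0.96, 0.36 and -0.61 in the 3 experiments, and its r with DFR was -0.108 over the 6 arrays but -0.904 over the 4 arrays left without bzr1-1D of experiment 1 and det2 of experiment 3. In all, 5 of the 10 measured genes of synthesis and decoration were higher in bzr1-1D in experiments 1 and 3 and lower in experiment 2, as DFR was, against 11.7% of all probe sets. These were CHIL, UGT78D1, UGT78D2, AT4G14090 and AT5MAT. An r with DFR of at least 0.8 was reached by 4 of the 10 and by 3.72% of all probe sets. Both counts were made after the values were seen and are descriptions, and the genes share the same 6 arrays.

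**Figure D3:**
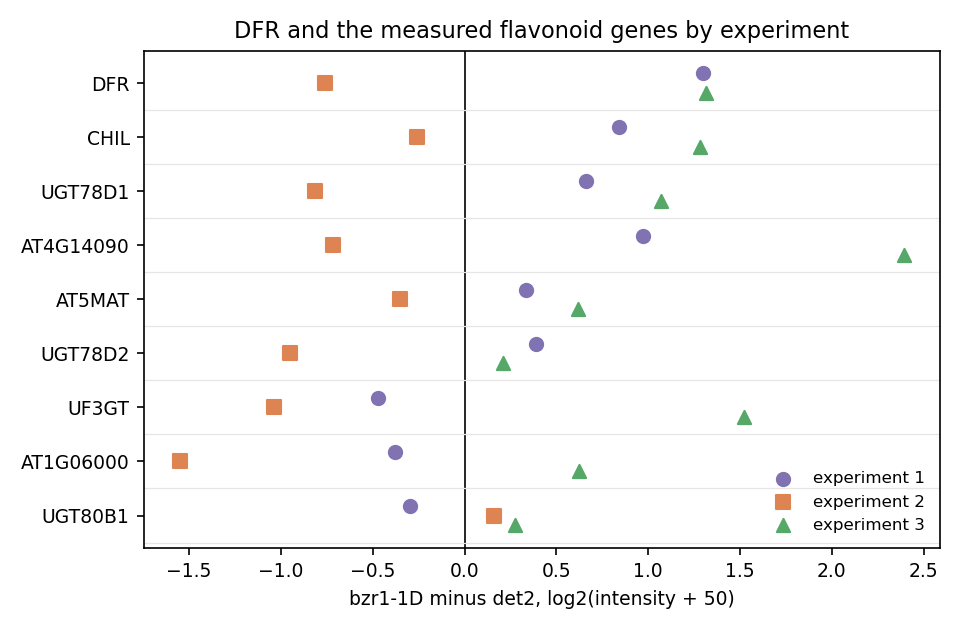
Bzr1-1D minus det2 as log2(intensity + 50) in each experiment for DFR and the 8 genes of flavonoid synthesis and decoration with a mean intensity of at least 100, with 1 marker per experiment. For DFR, CHIL, UGT78D1, AT4G14090, AT5MAT and UGT78D2 the experiment 2 marker lies left of 0 and the other markers right of it, whereas UF3GT, AT1G06000 and UGT80B1 have experiment 1 left of 0.

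The 8 genes most like DFR were sought among 1405 genes whose mean intensity was at least 100 and whose SD over the 6 arrays was at least 0.5 times that of DFR. Among these, UGT78D1 had the highest Pearson r with DFR (0.971) and CHIL the next (0.962). With no limit on the SD, 8355 genes competed, and 1 of the 8 genes was shared. Which genes fill the top 8 thus depended on that limit. In this larger pool UGT78D1 ranked 7 and CHIL 10. Among the 1405 genes within the SD limit, AT4G14090 ranked 9 and AT5MAT 11. The other genes of the top 8 were AT1G30760 (r = 0.948), AT5G14450 (0.94), the metallothionein MT1C (0.937), AT5G26790 (0.932), AT5G26280 (0.93) and AT4G13580 (0.926). In MT1C, a small metal-binding protein, the intensity was 7477.6, 2820.7 and 5586.1 in bzr1-1D, against 4721, 4947.5 and 3706.6 in det2. An r of 0.9 or more was reached by 14 of the 1405 genes and of -0.9 or less by 13. No test was made of these correlations, since the genes share arrays and were picked for a high or low r. The bzr1-1D array of experiment 1 and the det2 array of experiment 3 lay farthest from the DFR median. Without both, r over 4 arrays was 0.964 for UGT78D1, 0.947 for CHIL, 0.939 for AT1G30760 and 0.971 for MT1C. It was lower for the rest of the top 8, at 0.797 for AT5G14450, 0.67 for AT5G26790, 0.69 for AT5G26280 and 0.647 for AT4G13580. For AT4G14090 it was 0.92 and for AT5MAT 0.676.

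The 4 genes most opposite to DFR were AT2G21850 (r = -0.97), CCL (-0.956), AT5G17650 (-0.954) and AT2G43610 (-0.952). CCL, whose short-lived transcript is under control of the circadian clock, was at 1114.1, 3716.6 and 2024.4 in bzr1-1D, against 2552.6, 3030.5 and 7018 in det2. Its 6 arrays stood in exactly the reverse order of DFR, and its bzr1-1D minus det2 was -1.16, 0.29 and -1.77 in experiments 1, 2 and 3. The mean was -0.88 ± 0.42 (SE; limma, unadjusted p = 0.0929, adjusted p = 0.732).

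**Figure D4:**
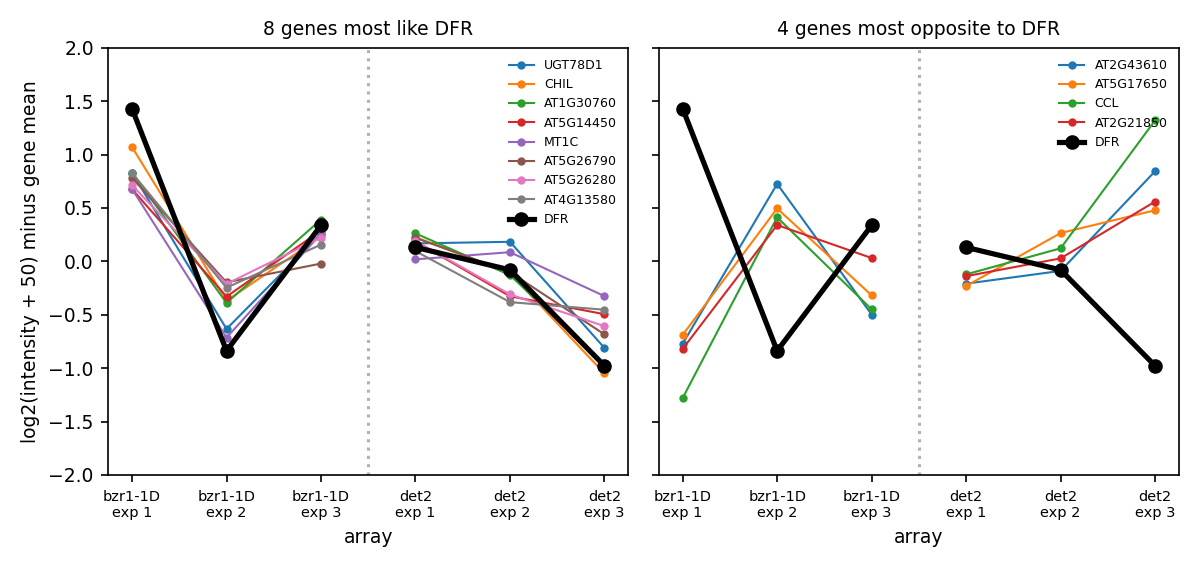
Log2(intensity + 50) minus each gene's own mean on the 6 arrays, with bzr1-1D left of the dotted line and det2 right of it, for DFR (black) and, on the left, the 8 genes with the highest Pearson r and, on the right, the 4 with the lowest. The like genes peak with DFR in bzr1-1D of experiment 1 and the opposite genes are lowest there; lines join arrays of a genotype and carry no order.

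Reductases held to be related to DFR varied among themselves. Of 20 listed, 12 had a named probe set, 9 with a mean difference above 0 and 3 below, where 47.6% of all probe sets lay above 0. By limma 0 passed and 0 had an unadjusted p under 0.05, against 0% and 6.84% of all probe sets. The signs of DFR in the 3 experiments were shared by 2 of the 12, against 11.7% of all probe sets. Their median r with DFR was 0.274, from -0.24 to 0.821, against a median of -0.0309 over all probe sets. CCR2, a cinnamoyl-CoA reductase that makes lignin precursors, was at 42, 213.2 and 10.6 in bzr1-1D, against 10.9, 11.6 and 9.6 in det2, so it stood out on the bzr1-1D array of experiment 2, where DFR was low. AT1G66800 was at 223.8, 55.3 and 472 in bzr1-1D, against 240.2, 421.2 and 459.7 in det2, lowest on that same array. BEN1, a relative of DFR that lowers brassinosteroid levels, was not analysed here.

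DFR lies on chromosome 5. Among genes with a named single-gene probe set, AT5G42765 and U2AF35B, a splicing factor subunit, were taken as the nearest on either side. Probe sets without a gene in the annotation were not considered. AT5G42765 had an r of 0.0147 with DFR over the 6 arrays and U2AF35B had 0.214. Over the 4 arrays left without bzr1-1D of experiment 1 and det2 of experiment 3 the values were 0.597 and 0.99. U2AF35B was at 350.7, 264.3 and 413.1 in bzr1-1D, against 398, 342.5 and 407.9 in det2. Its bzr1-1D minus det2 was -0.16 ± 0.14 (SE), without a call.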

How the data were processed

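Per the labels, total RNA of whole seedlings was hybridised as biotinylated cRNA to ATH1 arrays, and the deposited values are linear probe set intensities that the authors obtained with GCOS 1.1 at a target intensity of 500. Per the labels the authors then divided by a percentile and by the wild type in GeneSpring 7.0, but the values used here precede that division. Annotation was the platform's, joined to the TAIR10.1 gene table. It gave 1 gene to 13513 probe sets, several to 503 and none to 8730. No sequences were used.

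After 64 controls were left out, log2 of intensity plus 50 was fitted for 22746 probe sets with limma 3.58.1 (lmFit, eBayes, two-sided) in R 4.3.3, with genotype and experiment as terms. Benjamini-Hochberg adjustment covered all probe sets. Same-numbered arrays are paired because the labels say the genotypes were grown together. Their deviations from the genotype means correlated at 0.387, 0.08 and 0.373 in experiments 1, 2 and 3, against -0.371 to 0.107 between experiments. The value of experiment 2 lay within the range between experiments. Such deviations cancel out within each genotype, so higher values within experiments bring lower ones between them. The labels call the arrays biological replicates, and 3 per genotype limit the precision.

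DFR and the gene lists were chosen with earlier results of these data known. Named were DFR, the measured list members, and the 8 most like and 4 most opposite genes by Pearson r; the nearest genes were added after values were seen. The fit was tested on simulated data. Alternatives were another offset or none, other scalings, eBayes settings, array weights, filters, fits without the block and leaving out each experiment. Figures were drawn with matplotlib 3.10.9.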

Additional observations from a re-analysis of the deposited data

How the results depend on the processing

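The DFR difference, bzr1-1D minus det2, stayed above 0 and without a call in all 15 alternatives, from 0.27 to 1.31, with a limma adjusted p from 0.768 to 1. With no replicate block it was 0.618 (adjusted p = 0.989), and dropping the pairing changed no call of DFR or of a list member. The differences of DFR between experiments kept their signs and stayed without a call, and scaling on the spiked controls, chosen after seeing the data, moved them most. Over all probe sets the count called for bzr1-1D against det2 was 0 in the fit with the block. It was 1 with no replicate block and also 1 when the replicate block was random. For experiment 3 against 1 it was 0, but 8 among probe sets with a mean intensity of 100 or more, 5 with no genotype term and 9300 when scaled on the spiked controls, which moves the median of all probe sets to 0.724. For experiment 3 against 2 it was 0, but 3 with no genotype term and 15 on the spiked controls. Leaving out an experiment gave 0 calls in every contrast that remained.

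Of 23 list members 10 kept 1 direction in all alternatives, and none was called. When 1 experiment was left out, bzr1-1D minus det2 changed sign for BAN (-0.0646 to 0.0891), UGT80B1 (-0.0691 to 0.216), UF3GT (-0.755 to 0.525), UGT78D1 (-0.0765 to 0.868), UGT78D2 (-0.373 to 0.298), UGT78D3 (-0.0708 to 0.0698), AT1G06000 (-0.963 to 0.121), AT5MAT (-0.00859 to 0.476), TRY (-0.127 to 0.659), AT1G51410 (-0.405 to 0.051), AT1G09500 (-0.0212 to 0.318), AT5G58490 (-0.0246 to 0.184) and AT5G14700 (-0.0308 to 0.299), given as the lowest and highest value. The median of the flavonoid lists ran from -0.0691 without experiment 3 to 0.298 without experiment 2. UF3GT turned to -0.00236 with an offset of 16 and to -0.00722 with none. UGT78D3 turned to 0.00878 with an offset of 16, 0.175 with none, 0.00271 with centring, 0.00956 with quantile normalization, 0.00252 with array weights and 0.0285 on the spiked controls. The cause was not tested. Of the 8 genes most like DFR, 7 stayed with an offset of 16, 6 with none, 6 among genes averaging at least 200 and 1 with no limit on the SD.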

Other observations

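ICL, isocitrate lyase of the glyoxylate cycle by which seedlings turn stored oil into sugar, also went with DFR, and was picked after its values were seen. Its intensity was 8907, 102.5 and 1351 in bzr1-1D, against 4547.7, 381.1 and 253.9 in det2 in experiments 1, 2 and 3. It was higher in bzr1-1D in experiments 1 and 3 and lower in experiment 2, and its Pearson r with DFR over the 6 arrays was 0.889. An r of at least 0.8 was reached by 3.72% of all probe sets. Over the 4 arrays left without bzr1-1D of experiment 1 and det2 of experiment 3, the r of ICL was 0.821. On the log2 scale, experiment 2 minus experiment 1 was -4.65 (limma, unadjusted p = 0.00406, adjusted p = 0.32). Experiment 3 minus experiment 1 was -3.30 (limma, unadjusted p = 0.0154, adjusted p = 0.302) and experiment 3 minus experiment 2 was 1.35 (limma, unadjusted p = 0.192, adjusted p = 0.855). Its bzr1-1D minus det2 was 0.96, -1.50 and 2.21 in experiments 1, 2 and 3, without a call for the mean (limma, adjusted p = 0.89).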
